A study of Mus musculus with 17 samples.

Results

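Transcripts of the voltage-gated sodium channel, voltage-gated calcium channel and HCN channel families were examined in the dissected hippocampus of mice after 5 h without sleep. The genes were chosen by name: every probe set with exactly 1 gene symbol that starts with Scn, Cacna, Cacnb, Cacng or Hcn followed by a digit. This gave 37 of 18193 genes, read by 87 of 45037 probe sets. A probe set is a group of short probes on the array that together read 1 transcript region, and each gene was represented by its probe set with the highest mean signal over the 17 arrays. The animals were male C57BL/6J mice, housed singly and handled on each of 6 days before the experiment; the labels give their age as 2 months and the growth protocol as 2 to 4 months. Of these, 8 were kept awake in the home cage for 5 h by gentle handling from about the start of the light phase, and 9 were left undisturbed until the same time of day. The hippocampus of each animal was taken directly afterwards and hybridised to its own Affymetrix mouse array, in 1 RNA sample per animal. No group was handled in those hours and then left to sleep, so loss of sleep and handling cannot be told apart. The comparison asked which of these transcripts differ between the groups. In dissected tissue, fewer cells of a type and less RNA per cell cannot be told apart either.

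Voltage-gated sodium channels open on depolarisation and carry the upstroke of the action potential; a large alpha subunit forms the pore and small beta subunits adjust its gating and surface placement. Voltage-gated calcium channels turn depolarisation into calcium entry that drives transmitter release, dendritic signalling and gene expression, through a pore-forming alpha1 subunit with beta and alpha2delta subunits that carry it to the membrane. The gamma family carries a calcium channel name, but most of its brain members act mainly as auxiliary subunits of AMPA-type glutamate receptors. HCN channels open on hyperpolarisation and set the resting potential and dendritic integration of pyramidal neurons.

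The 3 genes with the most negative differences of the 37 were all of the gamma family: Cacng8, Cacng3 and Cacng5. Only Cacng3 passed the test. The upstream sequences of Cacng5 and Cacng8 are shown because these genes lie next to Cacng3 at the lower end of the set. Each is the 250 bases before an annotated start of the gene, from RefSeq on GRCm38.p6, written 5′ to 3′ on the gene's own strand. Capitals mark matches to any of 7 motifs. They were AP-1 (TGANTCA), the cyclic AMP response element (TGACGTCA), its core (TGACG, which the full element contains), the E-box (CACGTG), the D-box (TTATGTAA), the GC box (GGGCGG) and the TATA box (TATAAA), searched on both strands.
Cacng5, chr11:107915056-107915305, minus strand: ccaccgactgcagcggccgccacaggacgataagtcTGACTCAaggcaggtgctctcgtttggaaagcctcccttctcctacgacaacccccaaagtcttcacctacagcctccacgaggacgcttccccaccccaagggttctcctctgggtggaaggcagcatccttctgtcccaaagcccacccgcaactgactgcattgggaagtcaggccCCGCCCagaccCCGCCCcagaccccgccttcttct
Cacng8, chr7:3393792-3394041, plus strand: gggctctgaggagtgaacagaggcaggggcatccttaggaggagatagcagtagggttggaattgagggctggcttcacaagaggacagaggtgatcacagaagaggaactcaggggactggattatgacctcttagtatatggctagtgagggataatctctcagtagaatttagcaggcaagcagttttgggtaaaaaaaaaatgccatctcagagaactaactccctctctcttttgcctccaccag
None of the 7 motifs was found in the Cacng8 window. RefSeq gives Cacng5 2 starts. The window shown held 1 AP-1 match at position -214 and 2 GC boxes at positions -35 and -24, counted from its start, and the window of the other start held none of the 7 motifs. Of 32851 RefSeq windows of the same length 6.75% held an AP-1 match, 32.7% a GC box, 17.8% the cyclic AMP core and 1.55% the full element. The E-box was found in 6.02%, the D-box in 0.819% and the TATA box in 12.4%. Of the 37 channel genes 28 had at least 1 window, 38 in all, of which 15 held a GC box, 5 the cyclic AMP core, 2 a TATA box and 1 an AP-1 match. A match describes the letters of a window, not a bound site.

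Across the whole set the differences were small, and 1 of the 37 genes passed. Each difference below is the sleep-deprived mean minus the undisturbed mean of log2 levels, tested with limma over all 18193 genes with Benjamini-Hochberg adjustment at 0.05. Cacng3 fell, no gene rose and 36 did not pass. Over all genes 3.97% passed in either direction, 2.73% as lower and 1.25% as higher, so the share among the channel genes, 1 of 37, was near the background. After quantile normalization 335 genes in all were higher and 390 lower, and after cyclic loess 340 and 432, against 227 and 496 as deposited; Cacng3 remained the 1 channel gene called. At an unadjusted p under 0.05, 6 channel genes were lower (Cacna1a, Cacna2d1, Cacnb4, Cacng3, Cacng5 and Scn1a) and none was higher, against 18.6% of all genes in either direction, 10.9% lower and 7.65% higher. An unequal-variance test and an exact rank-sum test also called no channel gene higher. In none of the 37 genes were the groups of arrays fully separate, as they were in 0.731% of all genes.

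**Figure D1:**
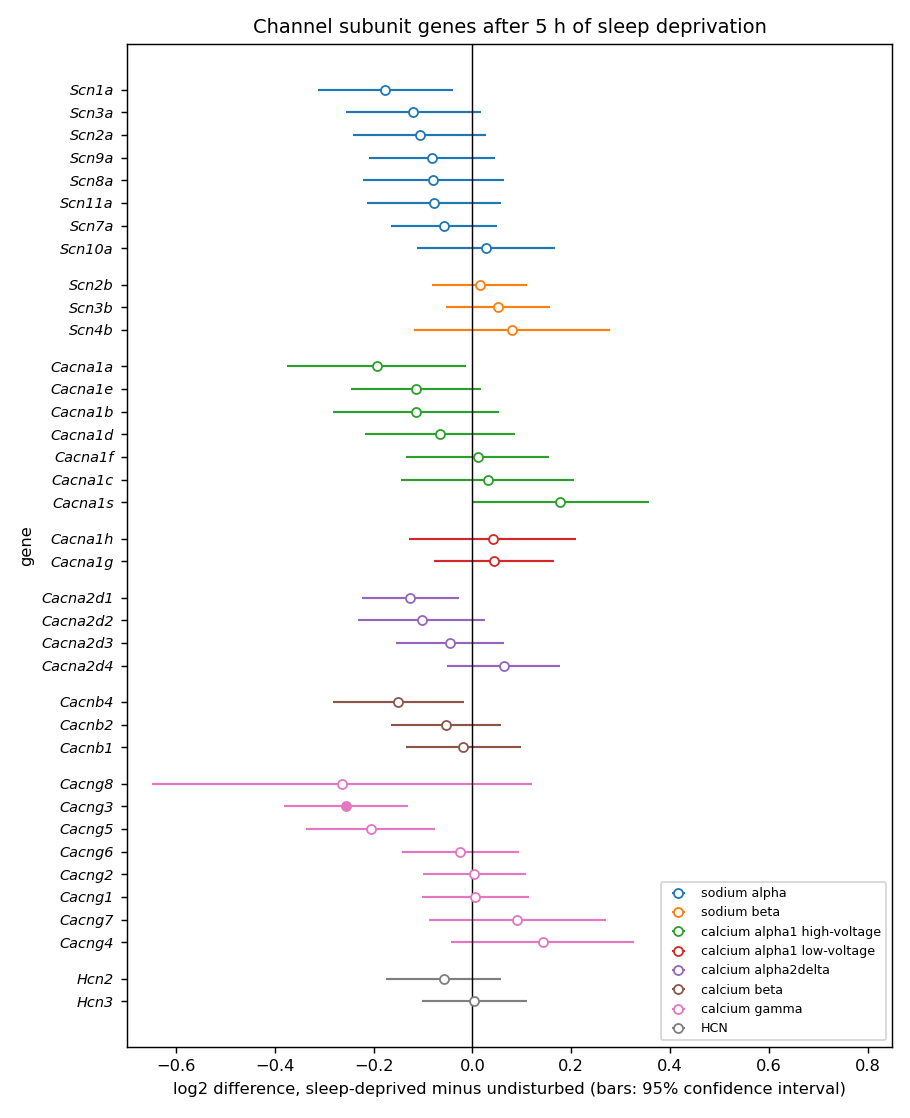
Log2 difference (sleep-deprived minus undisturbed, x axis) of each of the 37 channel genes (y axis), ordered and coloured by subunit role, with bars for the 95% confidence interval from limma. The filled point, Cacng3 at -0.26, is the 1 gene that passed the adjusted test, and the wide bar of Cacng8 runs from -0.65 to 0.12.

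The median difference over the 37 genes was -0.053, and 22 of them were negative. Over all genes the median was 0.0016, but it depended on the signal: genes with a mean level of 7 and over had a median of -0.029 with 64.1% negative, and dimmer genes a median of 0.035 with 31.4% negative. Of the channel genes 27 lay at or above 7, with a median of -0.058 and 17 negative, and 10 lay below, with a median of -0.0091 and 5 negative. After quantile normalization the channel median was -0.032, when the probe sets of each gene were averaged it was -0.017, and without sleep-deprived replicate 5 it was -0.023.

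The gamma subunit genes spanned both ends of the set. Of 8 members 1 fell and 7 did not pass, with a median of -0.010. Cacng3 encodes a transmembrane AMPA receptor regulatory protein found mainly in forebrain neurons. Its level ran from 9.43 through a median of 9.65 to 9.78 in the undisturbed animals, and from 9.14 through 9.41 to 9.62 in the sleep-deprived ones. All 8 sleep-deprived animals lay below the undisturbed mean and 5 lay below the lowest undisturbed animal, while the groups still overlapped. The mean was 9.65 ± 0.11 (SD, n = 9) against 9.39 ± 0.15 (SD, n = 8), a 1.195-fold lower level (difference -0.26, SE 0.0605, 95% interval -0.38 to -0.13, limma adjusted p = 0.019). The call was lost in an unequal-variance test (adjusted p = 0.059) and held when any 1 array was left out, with adjusted p from 0.0078 to 0.043. Cacng3 had 1 probe set, so no second one could check it. Adjusted over all 45037 probe sets, that probe set passed in limma (adjusted p = 0.033), and it lost that call when any of 9 of the 17 arrays was left out and with the choroid plexus covariate described below.

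Cacng5, of the type of gamma subunit that modulates AMPA receptors differently from stargazin, ran from 7.54 through 7.71 to 7.96 in undisturbed animals and from 7.34 through 7.46 to 7.77 in sleep-deprived ones. In 6 of 8 sleep-deprived animals it lay below the undisturbed range, and in 1 it lay above the undisturbed mean. The difference of -0.21 (SE 0.063) did not pass (limma adjusted p = 0.069). Its dimmer probe set lay at 0.048 (SE 0.0625), and the difference between the 2 probe sets missed the threshold (limma adjusted p = 0.206). Cacng8, the main regulatory protein of hippocampal AMPA receptors, had the most negative value, -0.26, and the widest error (SE 0.185, 95% interval -0.65 to 0.12). Its level ran from 6.397 through a median of 6.89 to 8.01 in the undisturbed and from 6.18 through 6.84 to 7.35 in the sleep-deprived animals. The SD between animals within groups was 0.46, the largest of the 37 genes, and 0.165% of all genes had a larger one. The median was 0.14 over the channel genes and 0.12 over all genes. The wide spread was that of the brightest Cacng8 probe set. The dimmer one, with a mean level of 6.07, had an SD of 0.097 in undisturbed and 0.16 in sleep-deprived animals. It lay at -0.12 (SE 0.061).

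The remaining gamma genes lay around or above 0. Cacng2, the gene of stargazin, was at 0.0035 (95% interval -0.10 to 0.11), with levels from 9.01 to 9.30 in undisturbed and from 8.96 to 9.30 in sleep-deprived animals. Cacng4 and Cacng7, both AMPA receptor auxiliary subunits, were at 0.14 (SE 0.089) and 0.091 (SE 0.087). Cacng1, a subunit of the skeletal muscle calcium channel, and its relative Cacng6 were at 0.0061 and -0.024, with mean levels of 4.58 and 4.81 near the low end of the scale.

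**Figure D2:**
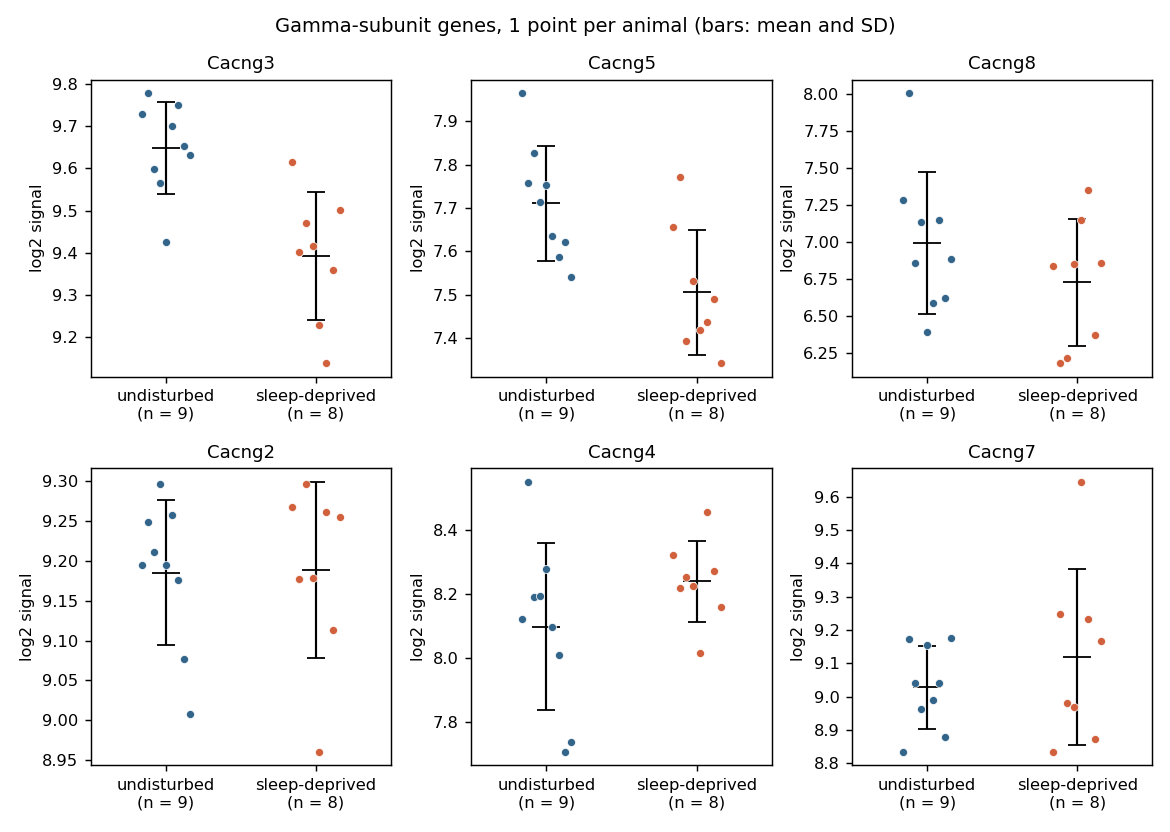
Log2 signal (y axis, a separate scale in each panel) of 6 gamma subunit genes in the 9 undisturbed and 8 sleep-deprived animals, 1 point per animal, with bars for the mean and SD. Cacng3 and Cacng5 sit lower in most sleep-deprived animals, Cacng8 spreads from 6.18 to 8.01, and Cacng2 covers nearly the same range in both groups.

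None of the 8 sodium channel alpha subunits passed, and 7 were negative, with a median of -0.081 and a range of -0.18 to 0.028. Scn1a, the alpha subunit on which fast-spiking interneurons depend most, ran from 9.00 through 9.13 to 9.46 in undisturbed animals and from 8.85 through 8.99 to 9.18 in sleep-deprived ones. In 4 of 8 sleep-deprived animals it was below the undisturbed range, and the groups overlapped. Its difference was -0.18 (SE 0.066, limma adjusted p = 0.145). Scn2a and Scn8a, which encode the alpha subunits of the axon initial segment of excitatory neurons, were at -0.11 (SE 0.065) and -0.080 (SE 0.069). Scn2a had 4 probe sets, all negative: -0.11, -0.13, -0.13 and -0.18. The last, the dimmest, came nearest to passing (limma adjusted p over all probe sets = 0.082), and 7 of 8 sleep-deprived animals lay below its undisturbed range. All 5 probe sets of Scn8a were negative as well, from -0.13 to -0.0083, and so were all 3 of Scn1a, from -0.18 to -0.042. Scn3a, the alpha subunit most abundant before birth, was at -0.12 (SE 0.066).

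The alpha subunits of peripheral sensory neurons lay near the low end of the signal scale, Scn9a with a mean level of 4.19, Scn10a with 4.00 and Scn11a with 4.95. Their differences were -0.082, 0.028 and -0.078. Scn7a, a sodium sensor of glia that is not gated by voltage, was at -0.057 (SE 0.052) with a mean level of 5.68. One of its dimmer probe sets was at 0.15 (SE 0.046, limma adjusted p over all probe sets = 0.10).

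All 3 beta subunit genes were positive and none passed. Scn3b had the smallest p of the 3, and its level ran from 11.66 through 11.87 to 12.00 in undisturbed and from 11.69 through 11.89 to 12.03 in sleep-deprived animals. The groups covered nearly the same range, and the difference was 0.052 (95% interval -0.054 to 0.16, limma adjusted p = 0.62). Scn2b was at 0.015 (95% interval -0.082 to 0.11). Scn4b, whose cytoplasmic tail can act as an open-channel blocker for resurgent current, was at 0.080 (SE 0.096). All 6 probe sets of these genes were positive, the smallest at 0.00037, against 18 of 24 negative for the alpha subunits. Probe sets of 1 gene are not independent. Of all genes 64.1% were negative at a mean level of 7 and over, and 31.4% below it. Whether alpha and beta subunits differ as groups was not tested.

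Among the 7 high-voltage-activated calcium channel alpha1 genes none passed, 4 were negative and 3 positive. Cacna1a, the pore of the P/Q-type channel of presynaptic terminals, ran from 6.92 through 7.21 to 7.44 in undisturbed animals and from 6.64 through 6.99 to 7.25 in sleep-deprived ones. In 4 of 8 sleep-deprived animals it was below the undisturbed range. The difference was -0.19 (SE 0.088, limma adjusted p = 0.23), and its second probe set, of nearly the same mean level (7.06 against 7.07), lay at 0.052. Cacna1b, the pore of the N-type presynaptic channel, was at -0.11 (SE 0.081), with all 4 probe sets negative down to -0.23 (limma adjusted p over all probe sets = 0.21). On 2 of these, all 8 sleep-deprived animals lay below the undisturbed mean. Cacna1e, the R-type pore, was at -0.11 (SE 0.063), and its dimmer probe set at 0.15. The L-type pores of neurons, Cacna1c and Cacna1d, were at 0.031 (SE 0.084) and -0.066 (SE 0.073). The dimmer probe set of Cacna1c lay at -0.145 (SE 0.0737), and its difference from the brighter one missed the threshold (limma adjusted p = 0.13 over all such pairs). Cacna1s and Cacna1f, the L-type pores of skeletal muscle and retina, were at 0.18 (SE 0.087) and 0.011 (SE 0.070), with mean levels of 4.01 and 5.56.

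Of the low-voltage-activated T-type channels, which support burst firing, Cacna1g ran from 7.96 through 8.09 to 8.44 in undisturbed animals and from 8.04 through 8.17 to 8.27 in sleep-deprived ones. The sleep-deprived values lay inside the undisturbed range. Its difference was 0.044 (95% interval -0.079 to 0.17, limma adjusted p = 0.73), and that of Cacna1h 0.041 (95% interval -0.13 to 0.21).

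The alpha2delta subunits, which set how many channels reach the presynaptic membrane, gave 3 negative values of 4 and no call. Cacna2d1, which encodes a binding site of gabapentin, ran from 11.33 through 11.45 to 11.54 in undisturbed and from 11.12 through 11.31 to 11.45 in sleep-deprived animals. All 8 sleep-deprived animals lay below the undisturbed mean and 5 below the undisturbed range. The difference was -0.13 (SE 0.047, limma adjusted p = 0.15). Of its 5 probe sets 4 were negative, while the dimmest, with a mean level of 4.84, lay at 0.18. Cacna2d2, Cacna2d3 and Cacna2d4 were at -0.10, -0.045 and 0.063.

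All 3 beta subunit genes of calcium channels were negative at their brightest probe set and none passed. Cacnb4 ran from 10.49 through 10.65 to 10.88 in undisturbed and from 10.22 through 10.53 to 10.72 in sleep-deprived animals, with 7 of 8 sleep-deprived animals below the undisturbed mean. Its 3 probe sets gave -0.15, -0.13 and -0.15, the first with limma adjusted p = 0.20 over all genes. Cacnb2 was at -0.053 (SE 0.054) and its other probe set at -0.17.

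Cacnb1 has 4 probe sets. The brightest was at -0.018 (95% interval -0.14 to 0.098), and the third in order of signal, the one with the ending _s_at, fell. On the latter the level ran from 7.47 through 7.65 to 7.82 in undisturbed animals and from 7.01 through 7.36 to 7.50 in sleep-deprived ones. All 8 sleep-deprived animals were below the undisturbed mean, 6 were below the undisturbed range, and the other 2 overlapped it. The mean was 7.62 ± 0.11 (SD, n = 9) against 7.33 ± 0.17 (SD, n = 8), 1.22-fold lower (-0.29, SE 0.064, limma adjusted p over all probe sets = 0.021). Without any 1 array the adjusted p lay between 0.016 and 0.044. The second in order of signal gave 0.050 and the dimmest -0.11, and neither passed. The test of the difference between the _s_at probe set and the brightest probe set missed the threshold (-0.27, SE 0.071, limma adjusted p = 0.063 over 16752 such pairs, of which 1.3% passed). It passed without undisturbed replicate 2 (0.035), undisturbed replicate 5 (0.042) or sleep-deprived replicate 1 (0.045). On this type of array the ending _s_at marks a probe set whose probes can match more than 1 transcript. Which transcripts each probe set reads was not analysed here. Over all channel probe sets 2 of 87 passed as lower, the ones of Cacng3 and Cacnb1, and none as higher, against 1.23% and 0.584% of all probe sets and 1.81% in either direction.

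**Figure D3:**
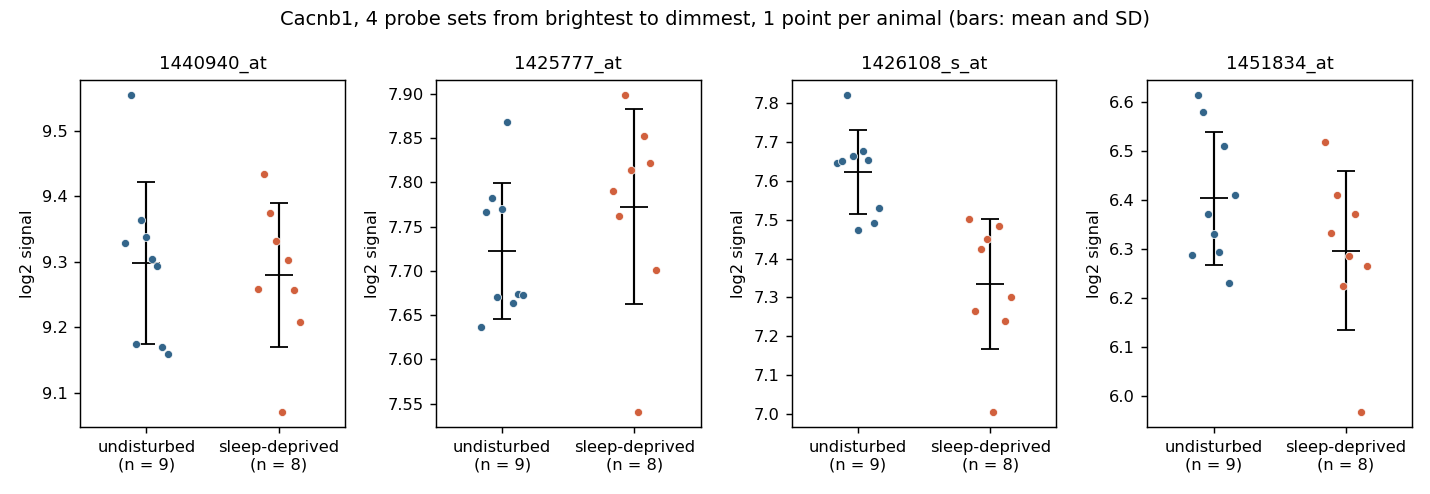
Log2 signal (y axis, a separate scale in each panel) of the 4 Cacnb1 probe sets in the 9 undisturbed and 8 sleep-deprived animals, 1 point per animal, with bars for the mean and SD. The probe sets run from brightest to dimmest; on the third the means are 7.62 and 7.33, and on the other 3 the groups overlap more widely.

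**Figure D4:**
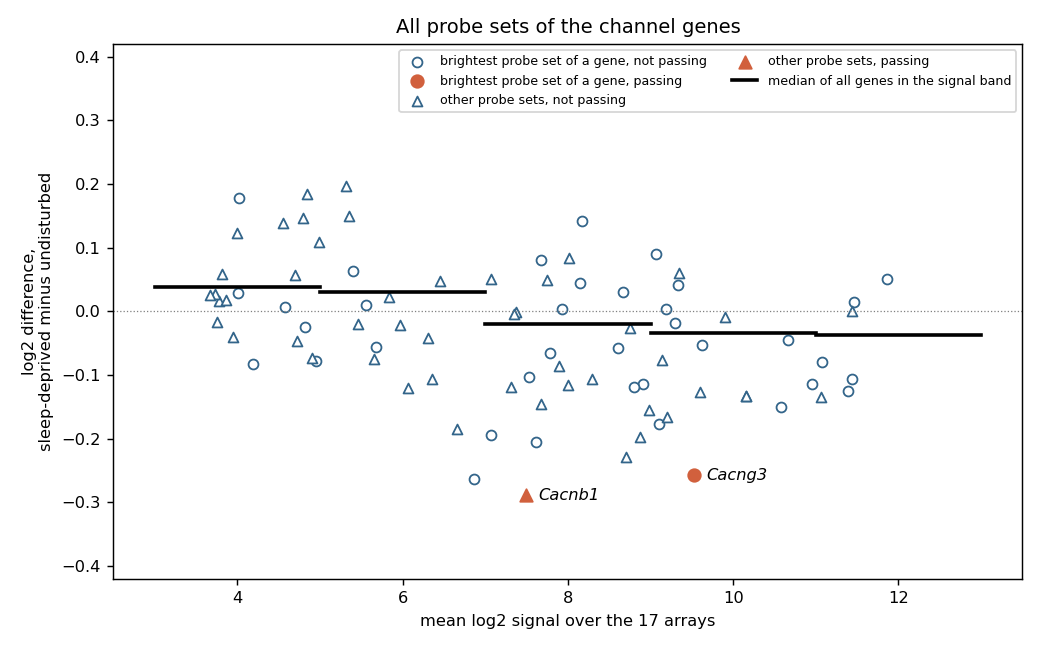
Log2 difference (y axis) of all 87 channel probe sets against their mean log2 signal over the 17 arrays (x axis). Circles are the brightest probe set of a gene, triangles the others, filled symbols passed the adjusted test, and black lines give the median of all genes in each signal band. The 2 filled symbols are Cacng3 at -0.26 and a dimmer Cacnb1 probe set at -0.29, and above a signal of 7 both the points and the lines lie mostly below 0.

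The HCN genes stayed close to 0 and neither passed. Hcn2 ran from 8.39 through 8.64 to 8.78 in undisturbed and from 8.25 through 8.62 to 8.66 in sleep-deprived animals. In each group 1 animal lay well below the rest, and the others overlapped. The difference was -0.058 (95% interval -0.18 to 0.058, limma adjusted p = 0.61). Hcn3 was at 0.0036 (95% interval -0.10 to 0.11).

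Genes that place or modulate these channels were read from a list of 37, of which 30 were measured. Of these 2 fell, against 2.73% of all genes, none rose and 28 did not pass, with a median of -0.055 and 21 negative. Fgf12, an intracellular fibroblast growth factor homologue that binds the tail of sodium channel alpha subunits, ran from 9.91 to 10.21 in undisturbed and from 9.47 to 10.02 in sleep-deprived animals. All 8 sleep-deprived animals lay below the undisturbed mean (-0.24, SE 0.065, limma adjusted p = 0.041). Nrcam, an adhesion molecule of the axon initial segment and node, ran from 11.13 to 11.37 and from 10.93 to 11.14 in the same groups, again with all 8 below the undisturbed mean (-0.16, SE 0.043, limma adjusted p = 0.038). The groups overlapped in both genes. Each call was lost when any of 10 of the 17 arrays was left out, with adjusted p up to 0.082 and 0.080, and both were lost after quantile normalization (adjusted p = 0.056 and 0.063). Fgf12 also lost its call in the unequal-variance and exact rank-sum tests (adjusted p = 0.11 and 0.092). Adjusted over all probe sets neither gene's brightest probe set passed (limma adjusted p = 0.067 for Fgf12 and 0.065 for Nrcam). A second probe set of Fgf12 was at -0.27 (limma adjusted p = 0.072 in the same family). The third probe set of Fgf12 lay at -0.039. The other probe sets of Nrcam lay at -0.11, 0.046 and -0.062, and the mean of its 4 at -0.072 (limma adjusted p = 0.448). Fgf14, a homologue of Fgf12, was at -0.23 and missed the threshold (limma adjusted p = 0.061).

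Markers of the cell types in the dissection gave a check of composition beside these values. None of 9 general neuronal markers, 8 pyramidal and granule cell markers or 8 interneuron markers passed, with medians of -0.069, -0.050 and -0.019. In these lists 8, 6 and 5 markers were negative, and 1, 2 and 3 positive. No marker of astrocytes (7), oligodendrocytes (6), their precursors (6) or microglia (6) passed either, with medians of -0.015, -0.066, -0.031 and -0.039. Of these 4, 5, 3 and 5 were negative. Of 9 endothelial and mural markers 2 fell, Pdgfrb of pericytes (-0.37, limma adjusted p = 0.0049) and Tek of endothelium (-0.26, limma adjusted p = 0.040), with a list median of 0.00076. Choroid plexus, the fluid-secreting epithelium next to the hippocampus, was unevenly present. All 9 measured markers were positive without passing (median 0.24), and their mean level ran from 5.74 to 7.36 in undisturbed and from 5.74 to 7.62 in sleep-deprived animals. The mean was above 7 in 2 of 9 undisturbed and 3 of 8 sleep-deprived animals. With that mean as a covariate in the fit the difference of Cacng3 was -0.23 (limma adjusted p = 0.031). Sleep-deprived replicate 5 stood apart in RNA quality: its control probe sets were 0.42 brighter at the 3' than at the 5' end, against 0.20 to 0.30 in the other 16 arrays. Without it Cacng3 was at -0.23 (limma adjusted p = 0.043).

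Channel genes also varied together between animals of the same group. Correlations were taken over the 17 arrays on deviations from the group means, which removes the difference between groups, for all 666 pairs of the 37 genes. Each pair shares the array and the RNA of an animal. The permutations treat the animals of a group as interchangeable, so any processing order or batch among them is left in. A permutation test within groups with 100000 resamples gave 56 pairs at an adjusted p under 0.05, of which 53 were positive, and 15 of these also passed on ranks. An absolute r of 0.75 or more was reached by 2.85% of the channel pairs and by 0.547% of all pairs of the 18193 genes. Among genes with a mean level of 7 and over the shares were 5.41% and 1.06%. The spread was not matched: the median SD within groups was 0.138 over the channel genes and 0.115 over all genes. Cacna1c was in 12 of the 56 pairs, Cacna1h in 11 and Cacna2d3 in 10. Of all genes 4.34%, 5.34% and 56.1% had a larger SD than these, in that order.

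The closest pair was Cacna1c and Cacna1h, an L-type and a T-type pore (Pearson r = 0.95, Spearman rho = 0.95). Both permutation p-values were 1e-05, the smallest this test can give (adjusted p = 0.0022 and 0.0033). Scn8a followed Cacna1c with r = 0.91 and rho = 0.82 (permutation adjusted p = 0.0022 and 0.024) and Cacna1h with r = 0.88 and rho = 0.84 (permutation adjusted p = 0.0033 and 0.024). Without the 2 arrays farthest from the median, r was 0.94, 0.90 and 0.84 for these pairs, and without sleep-deprived replicate 5 it was 0.94, 0.90 and 0.87. Given the 3' minus 5' control signal, r was 0.95, 0.93 and 0.91. The choroid plexus mean ran opposite to Cacna1c (r = -0.51), Cacna1h (r = -0.395) and Scn8a (r = -0.46), each with permutation adjusted p = 0.494. How much of the shared variation goes with choroid plexus content was not tested. These genes were also high in the same replicate numbers of both groups. Cacna1c deviated most in replicates 1 and 2, by 0.30 and 0.30 in undisturbed and 0.23 and 0.16 in sleep-deprived animals. Scn8a was also highest in replicates 1 and 2, and Cacna1h in 1, 2 and 4. Each gene was lowest in undisturbed replicate 9 and sleep-deprived replicate 5. Whether the shared variation goes with an order or a batch was not tested. A dimmer probe set of Cacna1c gave r = 0.82 with the brightest of Cacna1h and 0.87 with that of Scn8a. The dimmer probe set of Cacna1h, with a mean level of 5.65, gave 0.61 with the brightest of Cacna1c, 0.54 with that of Scn8a and 0.45 with the dimmer one of Cacna1c. The dimmest probe set of Scn8a, with a mean level of 5.46, went the other way, at -0.54 with the brightest probe set of Cacna1c. Scn8a and Cacna1a were also close, at r = 0.87 and rho = 0.92 (permutation adjusted p = 0.0022 and 0.0033; r = 0.81 without the 2 farthest arrays). None of these 4 genes passed in the comparison of the groups. Cacng3 was closest to Cacna2d3, at r = 0.72 and rho = 0.72 (permutation adjusted p = 0.036 and 0.057; r = 0.68 without the 2 farthest arrays).

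Cacng8 was set against the 30 measured partner genes in the same way, after its wide spread was seen. Pex5l, which encodes the HCN channel trafficking subunit TRIP8b, followed it with r = 0.83 and rho = 0.88 (permutation p = 5e-05 and 3e-05, adjusted over 30 genes 0.0015 and 0.0009). Without the 2 farthest arrays r was 0.82. These values are for the brightest probe set of each gene, and correlations of the dimmer ones are not given here. Pex5l itself ran from 9.34 to 10.61 in undisturbed and from 8.58 to 10.12 in sleep-deprived animals (-0.50, SE 0.22, limma adjusted p = 0.21). No other partner gene passed, the next being Dpysl2 (r = 0.59, rho = 0.53, permutation adjusted p = 0.20 and 0.29).

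**Figure D5:**
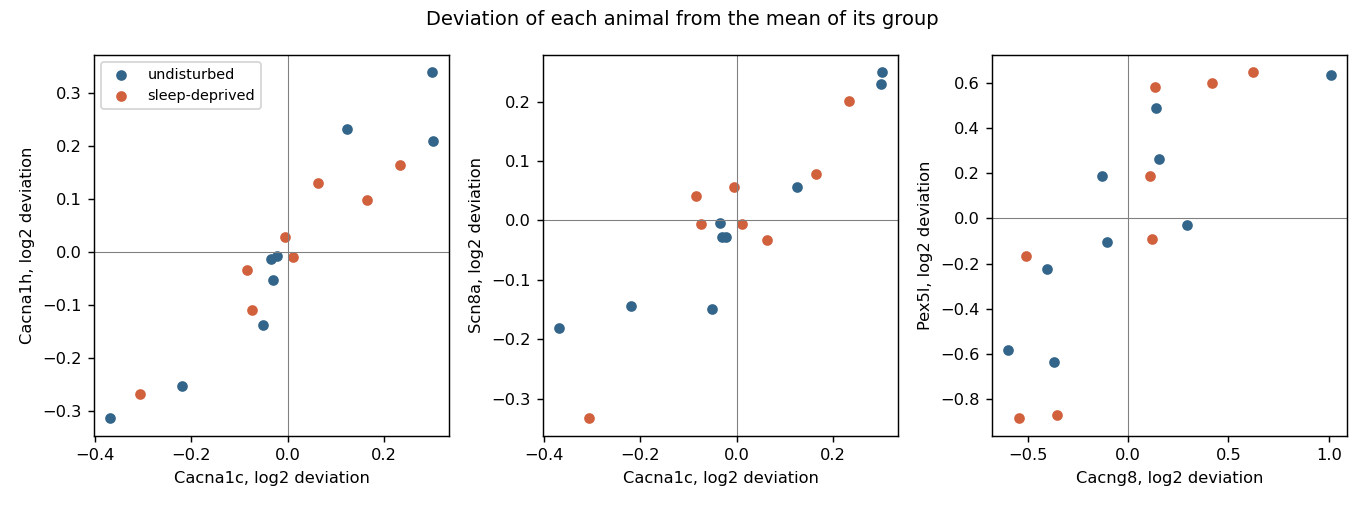
Deviation of each animal from the mean of its own group on the log2 scale, for Cacna1h against Cacna1c, Scn8a against Cacna1c and Pex5l against Cacng8, 1 point per animal coloured by group. Animals of both groups lie along 1 line in each panel, with r = 0.95, 0.91 and 0.83.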

How the data were processed

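RNA of the hippocampus of 17 mice, 8 sleep-deprived and 9 undisturbed, was measured on 1 array per animal. The deposited table holds 1 log2 signal for each probe set and array. The submitters' processing notes name RMA and affy; the sources used here give no version and no filter. The log base was taken from the values, which span 2.90 to 14.8. RMA brings the single probes of the arrays to 1 distribution before they are joined into probe sets. A shift common to most transcripts is therefore largely removed, and dim probe sets show compressed differences. The deposited probe set values do not share exactly 1 distribution, with array medians from 6.14 to 6.22. Arrays have no read depth, and their number limits the precision.

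Of 45101 probe sets 64 manufacturer's controls were left out. The platform annotation gives 1 gene symbol for 34945 probe sets, several for 932 and none for 9160. Groups were taken from the sample titles. Groups were compared with lmFit and eBayes of limma 3.58.1 in R 4.3.3 over all genes and over all probe sets, with Benjamini-Hochberg adjustment at 0.05, and differences between probe sets of a gene over all such pairs. The fit was tested on simulated data. Alternatives were a filter at a mean of 5, other normalizations, probe set rules, fits, tests and covariates, and each array left out. The titles do not say what the replicate numbers stand for. The deviations of same-numbered animals correlated from -0.159 to 0.393, above 0.1 in 3 of 8 pairs. Whether same-numbered arrays share an order or a batch was not tested.

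The channel genes, the partner and marker lists and the tests were chosen with earlier results of these data known. Values per animal are given for each channel gene with a passing probe set and for the one with the smallest p in each subunit role, and for Cacng5, Cacng8 and Cacng2, added after their values were seen. The upstream window of Cacng3 is not reported here. Of the partner list, called genes are named; Fgf14, Pex5l and Dpysl2 were added after their values were seen.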

Additional observations from a re-analysis of the deposited data

Results flagged for a closer look

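In 7 of 74 groups of 8 or 9 animals, taken over the 37 channel genes, 1 animal lay far from the others relative to the range of its group; chance flags about 1 group in 20. Sleep-deprived replicate 5 was the lowest in 3 of these: Cacnb2 at 9.26 against 9.54 in the next animal, Hcn2 at 8.25 against 8.58, and Scn8a at 10.7 against 11. The same array had the largest 3' minus 5' control signal, 0.42. Undisturbed replicate 1 was lowest for Hcn2, at 8.39 against 8.62. Among genes near the low end of the signal scale, sleep-deprived replicate 7 was highest for Cacna1f (5.98 against 5.63), replicate 4 lowest for Cacng6 (4.43 against 4.78) and replicate 6 highest for Scn10a (4.27 against 4.08). What sets these animals apart was not tested.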

How the results depend on the processing

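The count of channel genes that rose, 0, and of channel probe sets that rose, 0, was the same in every alternative run on it and without any 1 array. The count that fell, 1, became 2 with the most variable probe set (adding Cacnb1), or with array weights, the replicate block or a threshold of 0.10 (each adding Cacng5), and 0 in the unequal-variance test, and was 1 to 2 without 1 array. The channel probe sets that fell, 2, became 4 with the replicate block, 3 at a threshold of 0.10 (adding Scn2a) and 1 with the choroid plexus covariate, and were 1 to 3 without 1 array. Partner genes that fell, 2, became 0 after quantile normalization, cyclic loess, the mean of all probe sets, the most variable probe set or the choroid plexus covariate, 1 with array weights, the unequal-variance or the exact rank-sum test, 3 with the signal filter, and 4 with trend and robust options, the replicate block or a threshold of 0.10, and were 0 to 2 without 1 array. Pairs of probe sets that differed, 0 (9 of 50 at an unadjusted p under 0.05), became 1 with the signal filter or array weights (the Cacnb1 pair) or with the replicate block (a Cacna1a pair), and were 0 to 1 without 1 array; these settings were chosen after seeing the data. The share of all such pairs at the unadjusted threshold was not worked out, so the 9 cannot be set against a background. Pairs of 1 gene also share its brightest probe set. The channel median was -0.058 to -0.017 over the alternatives and -0.065 to -0.023 without 1 array. Over all genes 723 passed, against 467 in the unequal-variance test, 1268 at a threshold of 0.10 and 481 to 817 without 1 array. With the replicate block 913 genes passed. The block is given here only, since the titles do not say that the numbers pair the animals. Of 16 arrays 4 correlated best with the array of their own number in the other group. How many would do so by chance was not worked out, so the count does not decide whether the numbers pair the animals.

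Signs turned in values that had not passed as reported, except for Nrcam, which was at 0.046 with its most variable probe set. After quantile normalization and cyclic loess they turned for Cacna1f (-0.016 and -0.024), Cacnb1 (0.012 and 0.014), Cacng1 (-0.026 and -0.028) and Scn10a (-0.0027 and -0.00346). With the mean of all probe sets they turned for Cacna1c (-0.057), Cacna1e (0.018), Cacna1h (-0.017), Cacng2 (-0.0089), Scn7a (0.015) and Scn9a (0.0095), and with the most variable one for Cacna1e (0.15), Cacna2d1 (0.18) and Scn9a (0.017). They also turned for Cacna1f (-0.00434) and Hcn3 (-0.0063) with array weights, for Cacna1c (-0.016) and Cacng2 (-0.019) with the replicate block, and for Cacna1f (-0.018) and Cacng1 (-0.013) with the choroid plexus covariate. Without 1 array the range crossed 0 for Cacna1c (-0.016 to 0.074), Cacna1f (-0.049 to 0.041), Cacnb1 (-0.040 to 0.014), Cacng1 (-0.013 to 0.036), Cacng2 (-0.019 to 0.036), Cacng6 (-0.043 to 0.028), Hcn3 (-0.026 to 0.029), Scn10a (-0.0072 to 0.070) and Scn2b (-0.011 to 0.036). The causes were not tested.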
